A study of Mus musculus with 6 samples.

Results

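The genes described here are the 7 that encode inhibitors of cyclin-dependent kinases (CDKs), Cdkn1a, Cdkn1b, Cdkn1c, Cdkn2a, Cdkn2b, Cdkn2c and Cdkn2d. They were taken by gene symbol from a table of 23420 genes, and all 7 were present. The table holds RNA sequencing of mouse skeletal muscle satellite cells, the stem cells of muscle, in 3 control libraries and 3 libraries of cells lacking the maintenance DNA methyltransferase Dnmt1 (labelled Dnmt1 KO, knockout below). All animals were 7-week-old C57BL/6 males from crosses of Pax7-CreERT2, a tamoxifen-activated Cre recombinase driven by the satellite cell gene Pax7, with Dnmt1 flox mice, and tamoxifen or vehicle was given on 5 days. Which animals received vehicle, whether the controls carried Cre, and whether the libraries of a group came from separate animals is not given here, so p-values measure the spread between these libraries, which may be technical in part.

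CDK inhibitors hold back the kinases that move a cell through its division cycle. The Cip/Kip proteins p21 (Cdkn1a), p27 (Cdkn1b) and p57 (Cdkn1c) bind complexes of cyclins with several CDKs. The INK4 proteins p16 (Cdkn2a), p15 (Cdkn2b), p18 (Cdkn2c) and p19 (Cdkn2d) bind Cdk4 and Cdk6 alone, which keeps the retinoblastoma protein active and E2F factors silent. In muscle, p21 and p57 are known for the permanent exit from the cycle that accompanies the fusion of myoblasts, and p21 is also a classical target of the tumour suppressor p53.

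In the deposited table (mm10), Cdkn1a lies on chromosome 17 (from 29090986 to 29100722), Cdkn1b on chromosome 6 (from 134920401 to 134925525), Cdkn1c on chromosome 7 (from 143458339 to 143461050) and Cdkn2d on chromosome 9 (from 21288464 to 21291209). Cdkn2a, Cdkn2b (from 89306289 to 89311032) and Cdkn2c (from 109660876 to 109665372) lie on chromosome 4. Cdkn1a and Cdkn2a each have 2 start sites at exons of the deposited gene model, whose reads the value per gene adds up. For Cdkn1a the starts, at 29090979 and 29093769, lie a few bases before exons that begin at 29090986 and 29093772. The 250 bases before each start are shown because they differ in the CG dinucleotides (CpGs) that Dnmt1 methylates. The sequences are from RefSeq on GRCm38.p6, 5′ to 3′ on the strand of the gene. Capitals mark CpGs in all but the first, where they mark a match to the p53 response element, chosen for search after the sequence had been read.
Cdkn1a, upstream start (chr17:29090729-29090978, plus strand): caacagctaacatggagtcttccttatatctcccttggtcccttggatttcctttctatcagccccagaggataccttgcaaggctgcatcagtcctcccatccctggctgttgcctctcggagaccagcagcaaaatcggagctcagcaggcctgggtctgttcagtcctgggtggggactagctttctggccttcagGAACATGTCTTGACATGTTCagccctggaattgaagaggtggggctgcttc
Cdkn1a, downstream start (chr17:29093519-29093768, plus strand): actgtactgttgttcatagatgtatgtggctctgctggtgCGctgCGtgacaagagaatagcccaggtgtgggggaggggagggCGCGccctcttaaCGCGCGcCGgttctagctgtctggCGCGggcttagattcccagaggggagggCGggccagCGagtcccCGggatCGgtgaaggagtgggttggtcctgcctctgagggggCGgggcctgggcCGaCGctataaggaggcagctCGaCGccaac
Cdkn2a, start of the p16 transcript (chr4:89282193-89282442, minus strand): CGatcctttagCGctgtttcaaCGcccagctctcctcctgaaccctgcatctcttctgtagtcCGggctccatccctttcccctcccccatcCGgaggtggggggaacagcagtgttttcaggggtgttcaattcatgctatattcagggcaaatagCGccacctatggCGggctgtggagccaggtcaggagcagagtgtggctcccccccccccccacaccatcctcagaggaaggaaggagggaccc
Cdkn2a, start of the Arf transcript (chr4:89294620-89294869, minus strand): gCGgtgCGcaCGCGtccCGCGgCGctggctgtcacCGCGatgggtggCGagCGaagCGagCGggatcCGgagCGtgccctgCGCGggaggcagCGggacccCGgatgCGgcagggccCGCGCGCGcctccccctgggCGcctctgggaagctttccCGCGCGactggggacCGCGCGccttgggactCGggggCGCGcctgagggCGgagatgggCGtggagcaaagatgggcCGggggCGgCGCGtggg

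The window before the upstream Cdkn1a start held 2 CpGs, and that before the downstream start held 19. For Cdkn2a the counts were 7 before the p16 start and 40 before the start of Arf, a protein that stabilises p53 and is read from another frame of the same gene. Over 32851 promoters of the same length the median was 6 CpGs, and 98.7% held fewer than the Arf window. A p53 element, searched as 20 bases in 2 adjacent decamers with at most 1 mismatch (the motif is its own reverse complement), began 51 bases before the upstream Cdkn1a start with 1 mismatch. It occurred in 25 of the promoters, or 0.0761%, and in no other window among the 9 start sites of the 6 members with an entry. The E-box CANNTG, the word bound by MyoD and myogenin, was present once each before the downstream Cdkn1a start and the Cdkn2b start, and 66.2% of promoters hold it (both strands read alike). Cdkn2c also has 2 start sites, with 6 and 29 CpGs. Its windows are not shown because the start with 29, at 109666756, lies well beyond the deposited gene model, which ends at 109665372. These are matches of letters, and no binding or methylation was measured.

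The libraries held 954786 to 2021725 reads. Values are read counts that the authors multiplied by 1 factor per library, so that the totals lay between 1351539 and 1407629. Dnmt1 itself measured 614, 539 and 655 across control replicates 1 to 3, against 74.6, 36.1 and 81.2 across knockout replicates 1 to 3. By limma it fell by 3.29 on the log2 scale (SE 0.27, adjusted p = 0.00121). Of 8 satellite cell markers, 7 were above 0 in every library. Their summed value was 3323 to 3740 in controls and 2939 to 3407 in knockouts. Pax7 lay between 99.0 and 124 in controls and between 58.2 and 66.5 in knockouts (adjusted p = 0.0441, or 0.101 to 0.211 without any 1 library other than control replicate 2). It was the 1 marker called of 7 tested, and 3 of the 7 had positive log2 fold changes. The control libraries differed in genes of muscle differentiation. Myog, the transcription factor that drives that step, measured 24.1, 1821 and 5.53 across control replicates 1 to 3, against 905, 547 and 92.3 across knockout replicates 1 to 3. The summed value of 14 markers of differentiated muscle was 2182, 15806 and 1691 across controls against 8320, 8056 and 3255 across knockouts. Control replicate 2 was thus the highest of the 6 in both, and the groups overlapped.

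Cdkn1a was the most abundant CDK inhibitor by far and was high in every library except control replicates 1 and 3. Its values were 255, 836 and 217 across control replicates 1 to 3, against 949, 1126 and 587 across knockout replicates 1 to 3. The means were 436 ± 347 and 887 ± 275 (SD, n = 3 each). The 3 knockouts lay above 2 controls, and control replicate 2 lay between the knockouts, so the groups overlapped. With all 6 libraries the log2 fold change was 1.25 (SE 0.45, 95% interval 0.26 to 2.25) and did not pass the test (adjusted p = 0.215, limma). In the authors' deposited table its q-value was 0.417, and those of the other 6 members were between 0.893 and 1. Tests on whole reads did not pass either, with adjusted p = 0.367 by edgeR and 0.703 by DESeq2. Without control replicate 2 the gene rose, with a log2 fold change of 1.86 (SE 0.23, adjusted p = 0.000334). With all libraries 0 of the 7 members passed, against 1.76% of the 12591 genes tested (1.78% by edgeR and 2.09% by DESeq2). Before adjustment 1 of the 7, Cdkn1a, was under 0.05, against 15.5% of all genes tested. Without control replicate 2, Cdkn1a alone of the 7 was higher, against 5.30% of genes. In such bulk samples, a change in the number of cells with the transcript and a change in transcript per cell cannot be told apart.

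**Figure D1:**
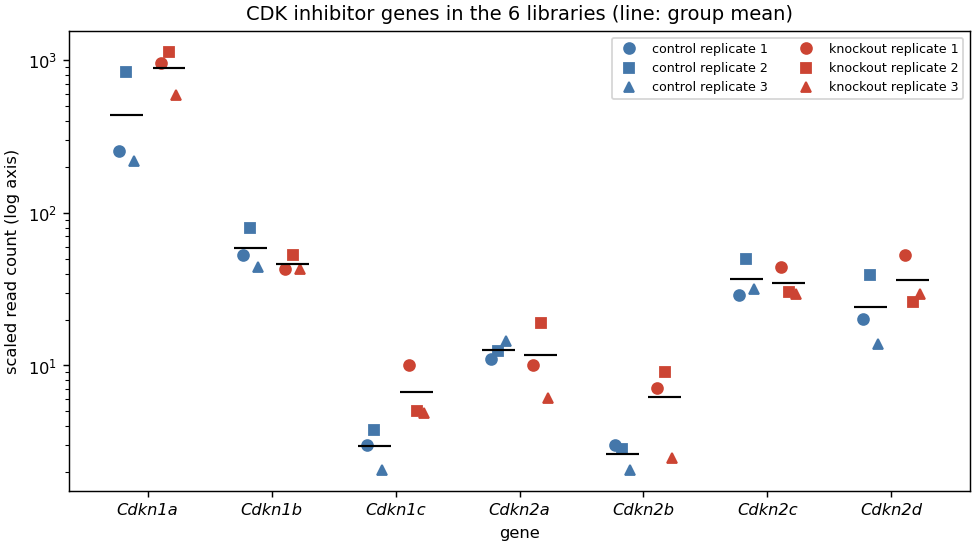
Scaled read count (log axis) of the 7 CDK inhibitor genes in each control (blue) and knockout (red) library, with lines at the group means and a marker shape for each replicate number. For Cdkn1a, control replicate 2 at 836 lies among the knockouts, at 587 to 1126, and above the other controls, at 255 and 217.

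Within the groups, Cdkn1a tended to be higher where Myog was higher. In a fit of each gene on group and log2 Myog together, the slope of Cdkn1a was 0.25 log2 units per log2 unit of Myog (SE 0.028, adjusted p = 5.15e-05, limma), and 4.50% of the 12590 genes had a slope past the threshold. The slope stayed between 0.22 and 0.27 with any 1 library left out. Its call ended without control replicate 2 (slope 0.22, adjusted p = 0.567), a setting in which 7 genes in all had a called slope, against 567 with all libraries. In the same fit the knockout difference of Cdkn1a was a log2 fold change of 0.65 (SE 0.16, 95% interval 0.30 to 0.99, adjusted p = 0.0379), and it was the 1 member past the threshold, against 3.74% of genes. That call ended without any 1 library other than knockout replicate 1, with adjusted p of 0.0644 to 0.793 and estimates of 0.54 to 0.80. Myog was measured in the same libraries, and genotype and Myog level cannot be fully told apart in this design. Knockout replicate 3, with 92.3 for Myog, had 587 for Cdkn1a. Control replicate 1, with 24.1 for Myog, had 255.

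**Figure D2:**
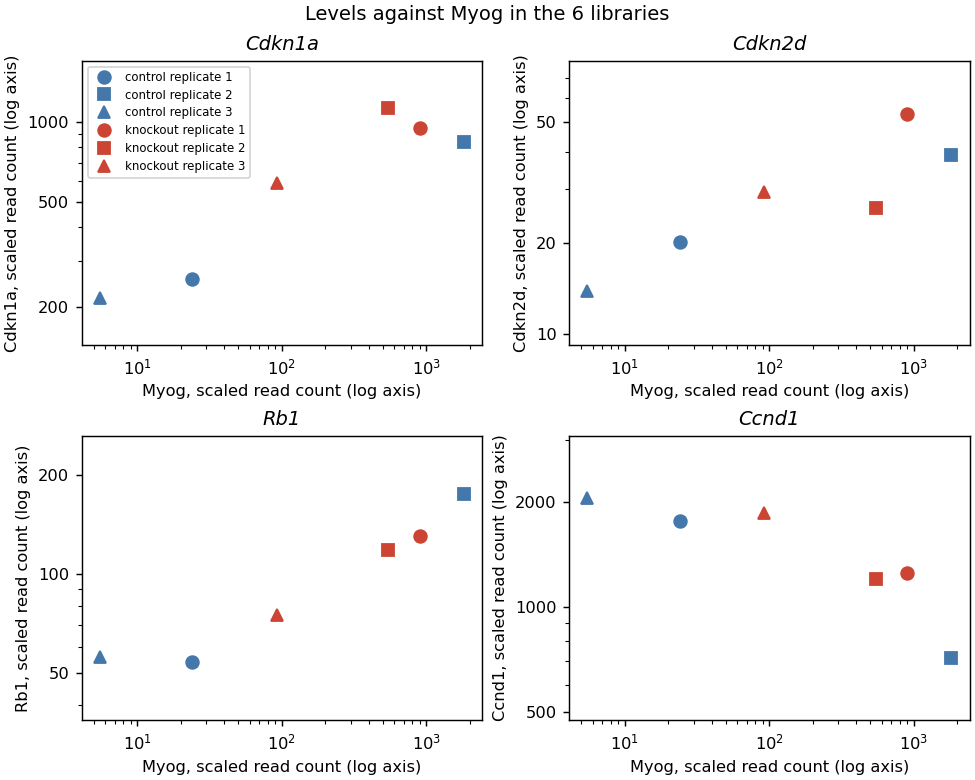
Scaled read counts of Cdkn1a, Cdkn2d, Rb1 and Ccnd1 (vertical log axes) against Myog (horizontal log axis) in the 3 control (blue) and 3 knockout (red) libraries, 1 point per library. Control replicate 2, at 1821 for Myog, is high in Cdkn1a, Cdkn2d and Rb1 and lowest in Ccnd1, at 714.

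The other Cip/Kip genes were far less abundant, and neither had a slope on Myog past the threshold. Cdkn1b, which encodes the p27 protein that accumulates in resting cells, had 53.2, 79.0 and 44.3 across controls against 43.0, 53.2 and 43.1 across knockouts. Control replicate 2 was the highest, and the rest lay close together. Its log2 fold change was -0.30 (SE 0.25, 95% interval -0.86 to 0.26, adjusted p = 0.597), and its slope on Myog was 0.089 (SE 0.039, adjusted p = 0.274). Cdkn1c, the imprinted gene of p57, was near the limit of detection. It had 3.01, 3.81 and 2.07 across controls against 10.04, 5.02 and 4.92 across knockouts, from 3, 4 and 3 reads and 7, 5 and 4 reads. It was the 1 member whose groups did not overlap, as was so of 13.4% of tested genes in the direction of the knockout, but control replicate 2 and knockout replicate 3 both rested on 4 reads. The exact Poisson 95% interval of its value, which covers counting error only, was 1.04 to 9.75 in control replicate 2 and 1.34 to 12.6 in knockout replicate 3. The log2 fold change was 0.91 (SE 0.46, 95% interval -0.11 to 1.93, adjusted p = 0.380), and the slope on Myog was 0.089 (SE 0.0904, adjusted p = 0.717).

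Among the INK4 genes, Cdkn2d, which encodes p19INK4d, had the highest correlation with Cdkn1a over the libraries (r = 0.810, a description). Its values were 20.1, 39.0 and 13.8 across controls against 53.05, 26.1 and 29.5 across knockouts. Control replicate 2 lay above 2 knockouts. The log2 fold change was 0.61 (SE 0.41, 95% interval -0.29 to 1.52, adjusted p = 0.509), or 1.01 without control replicate 2 (adjusted p = 0.121). Its slope on Myog was 0.17 (SE 0.055, adjusted p = 0.108). Without knockout replicate 2 that slope was 0.18 and passed (adjusted p = 0.0359). Cdkn2c, which encodes p18, had 29.1, 49.5 and 31.8 across controls against 44.4, 30.1 and 29.5 across knockouts. Control replicate 2 and knockout replicate 1, the libraries highest in Myog, were also the highest in Cdkn2c. Its log2 fold change was -0.07 (SE 0.29, 95% interval -0.71 to 0.57, adjusted p = 0.934) and its slope was 0.094 (SE 0.047, adjusted p = 0.352).

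The neighbouring genes Cdkn2a and Cdkn2b, a locus known for its activity in senescent cells, stayed low in all libraries. Cdkn2a had 11.0, 12.4 and 14.5 across controls against 10.04, 19.1 and 6.15 across knockouts. The knockouts lay on both sides of the controls, and the log2 fold change was -0.22 (SE 0.43, 95% interval -1.17 to 0.73, adjusted p = 0.841). The deposited gene model, at 89274473 to 89294619 on chromosome 4 (mm10), joins the first exons of p16 (from 89281986 to 89282192) and of Arf (from 89294334 to 89294619), and the value does not separate them. Cdkn2b, which encodes p15, had 3.01, 2.86 and 2.07 across controls against 7.17, 9.03 and 2.46 across knockouts. Each control rested on 3 reads and the knockouts on 5, 9 and 2, so that knockout replicate 3 had fewer reads than any control. The log2 fold change was 0.86 (SE 0.51, 95% interval -0.280 to 1.998, adjusted p = 0.460). With all 6 libraries and no covariate, the intervals of the 6 members other than Cdkn1a included 0. Before adjustment over all genes, those of Cdkn1b with the Myog covariate (-1.001 to -0.031), Cdkn2d without control replicate 2 (0.23 to 1.79) and Cdkn2b without knockout replicate 3 (0.22 to 2.42) did not, and none of the 3 passed (adjusted p of 0.272, 0.121 and 0.258). The slopes of Cdkn2a and Cdkn2b on Myog were 0.030 (SE 0.0799, adjusted p = 0.918) and 0.086 (SE 0.0981, adjusted p = 0.757).

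**Figure D3:**
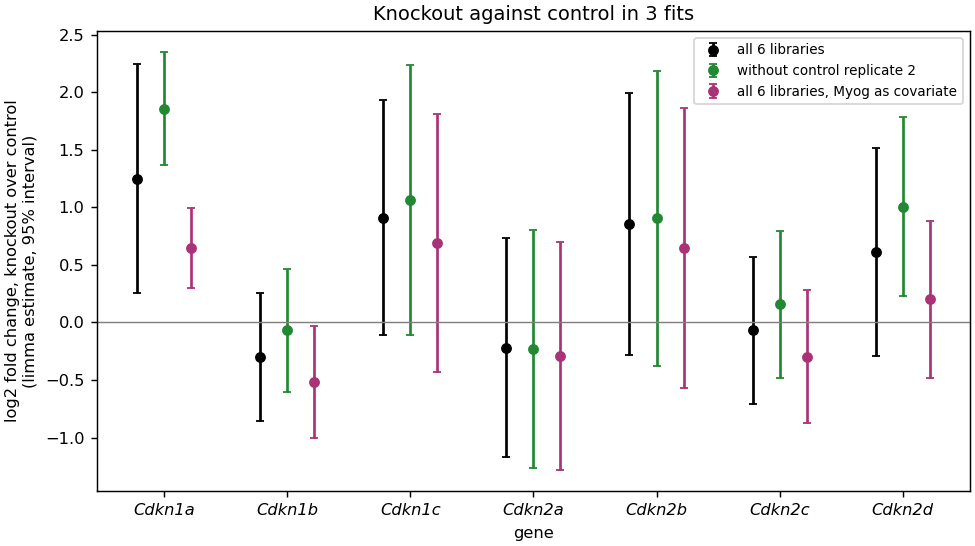
Log2 fold change of the 7 genes in knockout over control libraries, with 95% intervals from limma, for all 6 libraries (black), without control replicate 2 (green) and with log2 Myog as a covariate (purple). The estimate for Cdkn1a is 1.25, 1.86 and 0.65 in these fits, and the intervals of Cdkn1c, Cdkn2a, Cdkn2b and Cdkn2c include 0 in all 3.

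Over the 7 members the median log2 fold change was 0.61, against 0.02 over all genes tested, and 4 of the 7 were positive. Without Cdkn1c and Cdkn2b, the members of lowest count, the sign of the median turned. Over the 5 members left by a filter on a mean of at least 5 it was -0.07, and over the same 5 by edgeR -0.05, with 2 of 5 positive in both. It was 0.20 with the Myog covariate and 0.29 to 0.90 with 1 library left out. In 5 of the 7, Cdkn1a, Cdkn1b, Cdkn1c, Cdkn2c and Cdkn2d, control replicate 2 was the highest of the controls, as it was in 36.1% of all tested genes. All 7 slopes on Myog were positive, with a median of 0.089, and that of Cdkn1a alone was called. The slope of Cdkn2a was -0.022 without knockout replicate 3. The share of positive slopes over all genes was not computed.

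Levels of different genes can be compared per kilobase of exon. Cdkn1a had 215 ± 171 scaled reads per kilobase in controls and 438 ± 136 in knockouts (SD, n = 3 each) and ranked first in all 6 libraries. Cdkn2c followed with 33.3 ± 10.03 in controls and 31.4 ± 7.64 in knockouts. Cdkn2d had 19.1 ± 10.3 and 28.5 ± 11.6, and Cdkn1b had 24.5 ± 7.51 and 19.3 ± 2.43, so neither Cdkn2c and Cdkn2d nor Cdkn2d and Cdkn1b were separated beyond their spread. Cdkn2c ranked above Cdkn1b in all 6 libraries, with groups of values that overlapped in controls (26.3 to 44.8 and 18.4 to 32.9) and not in knockouts (26.7 to 40.2 and 17.9 to 22.1). Cdkn2a had 11.1 ± 1.55 and 10.3 ± 5.83, Cdkn2b 1.90 ± 0.360 and 4.47 ± 2.43, and Cdkn1c 1.53 ± 0.447 and 3.43 ± 1.51. The last pair were within their spread of each other and were the lowest of the 7 in each library. Cdkn1a made up 61.8%, 77.0% and 59.4% of the summed level of the 7 genes across controls against 79.7%, 85.3% and 78.9% across knockouts. That share was higher in each knockout than in each control, but control replicate 2 (77.0%) lay close to knockout replicate 3 (78.9%). The share was not tested. The summed level of the 4 INK4 genes overlapped, at 54.0, 88.5 and 53.9 across controls against 95.9, 71.0 and 57.1 across knockouts.

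**Figure D4:**
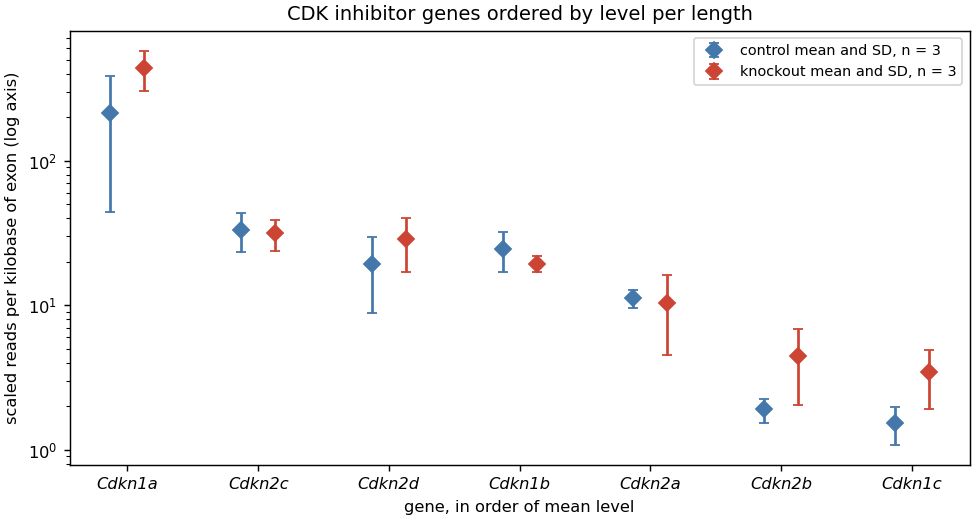
Level of the 7 genes in scaled reads per kilobase of exon (log axis), as group means with SD for 3 control (blue) and 3 knockout (red) libraries, in order of mean level. Cdkn1a, at 215 and 438, stands above Cdkn2c, at 33.3 and 31.4, and Cdkn1c is lowest, at 1.53 and 3.43.

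The genes listed as CDK partners, mostly cyclins and CDKs, did not pass between the groups. Of 15 CDK partners tested with limma, 0 were higher and 0 lower (median log2 fold change -0.26). Before adjustment 5 were under 0.05, 1 higher and 4 lower. The count that passed was also 0 for 13 pocket proteins and E2F factors (median -0.27). Before adjustment 3 of them were under 0.05, all lower. The share of all genes under 0.05 before adjustment was 15.5%. Of these 13, 1 was lower with the covariate and by DESeq2, and 1 was higher and 1 lower without control replicate 2. Cdk4 and Cdk6, the kinases bound by INK4 proteins, had log2 fold changes of -0.39 (adjusted p = 0.457) and -0.26 (adjusted p = 0.674). Cdk2, a main target of p21 and p27, had 87.3, 118 and 107 across controls against 78.9, 59.2 and 61.5 across knockouts (log2 fold change -0.64, SE 0.20, adjusted p = 0.150). All 3 knockouts were below the 3 controls in Cdk2, but it missed the threshold. The share of all genes separated in that direction was not computed. The D-type cyclins activate Cdk4 and Cdk6, and Ccnd1, Ccnd2 and Ccnd3 had log2 fold changes of 0.04, -0.07 and 0.17 (adjusted p of 0.836 to 0.973). The retinoblastoma gene Rb1 stood at 0.37 (adjusted p = 0.707), or 0.92 and past the threshold without control replicate 2 (adjusted p = 0.0397). Its relative Rbl1 stood at -0.47 (adjusted p = 0.454). Mki67, a marker of dividing cells, had 726, 743 and 965 across controls against 873, 623 and 927 across knockouts (adjusted p = 0.979).

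Of these genes, Ccnd1, Ccnd3 and Rb1 also had a called slope on Myog. Ccnd1, the cyclin of dividing myoblasts, had 1764, 714 and 2051 across controls against 1253, 1202 and 1858 across knockouts, and its slope on Myog was negative (-0.19, SE 0.026, adjusted p = 0.000343). Ccnd3, the D-type cyclin retained in differentiating muscle, had 230, 483 and 205 across controls against 447, 304 and 239 across knockouts (slope 0.17, SE 0.028, adjusted p = 0.00183). Rb1, required for lasting cycle exit in muscle, had 54.2, 174 and 56.0 across controls against 130, 118 and 75.1 across knockouts (slope 0.22, SE 0.034, adjusted p = 0.00081). Control replicate 2 was the highest library in Ccnd3 and Rb1 and the lowest in Ccnd1. Named after their values were seen, the muscle factor Mef2c (slope 0.69, adjusted p = 0.000250) and the growth gene Myc (slope -0.20, adjusted p = 0.00205) were the largest slopes in either direction among 16 tested regulators of CDK inhibitors in muscle. Of the 13 markers of differentiated muscle other than Myog, all 13 had a called positive slope. Without control replicate 2 the slopes of Ccnd1, Ccnd3 and Rb1 did not pass (adjusted p of 0.624 for both cyclins and 0.711 for Rb1), nor did those of Mef2c (0.682) and Myc (0.364).

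The p53 pathway is the best known inducer of Cdkn1a. Of its 18 tested genes, 3 had a called slope on Myog, against 4.50% of all genes tested for a slope. Over all genes tested, 1.76% passed between the groups in either direction. Between the groups 5 of these genes of p53 and its targets rose and 0 fell (median log2 fold change 0.86). Before adjustment 13 of the 18 were under 0.05, all of them higher, against 15.5% of all genes tested. The count of genes that rose was 2 without knockout replicate 1 or 2, 3 with a pseudocount of 0.1 and 8 without control replicate 2. The list was chosen with earlier results of these data known. Ccng1, a p53-induced regulator of the cycle, had 258, 372 and 311 across controls against 1108, 1261 and 922 across knockouts (log2 fold change 1.81, SE 0.18, adjusted p = 0.00152). Its groups did not overlap, as was so of 13.4% of tested genes in that direction. Its slope on Myog was 0.054 (SE 0.028, adjusted p = 0.371). Mdm2, whose product drives the degradation of p53, had 234, 230 and 203 across controls against 413, 584 and 541 across knockouts (log2 fold change 1.19, adjusted p = 0.00921) and a slope of 0.0026 (SE 0.029, adjusted p = 0.982). For Ccng1 and Mdm2 control replicate 2 lay with the other controls, whereas for Cdkn1a it lay among the knockouts. It also lay there for Gadd45a, another gene of this list, named after its values were seen. Gadd45a had 76.2, 127 and 45.6 across controls against 135, 137 and 68.9 across knockouts. Its slope on Myog was called (0.19, adjusted p = 0.00638, or up to 0.353 with 1 library left out). The position of control replicate 2 was not counted over the 18 genes. Trp53inp1 and Eda2r, also p53 targets, rose with log2 fold changes of 3.06 (adjusted p = 0.00576) and 1.65 (adjusted p = 0.0303), and had called slopes of 0.17 (adjusted p = 0.0337) and 0.15 (adjusted p = 0.0144). The calls of Mdm2 (adjusted p = 0.0603 without knockout replicate 2) and Trp53inp1 (0.0548 without knockout replicate 1) each ended without 1 library, the slope calls of Trp53inp1 and Eda2r ended without control replicate 2 (adjusted p of 0.819 and 0.771), and the fold change call of Eda2r ended without any 1 library other than control replicate 2 (0.0759 to 0.159), with a pseudocount of 0.1 (0.0511) and by edgeR (0.0517). Trp53 itself stood at -0.05 (adjusted p = 0.919). Whether the slope of Cdkn1a differs from those of Ccng1 and Mdm2 was not tested.

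Genes that control the stability or the loci of the inhibitors mostly did not pass. Over all genes tested, 15.5% were under 0.05 before adjustment. Of 12 tested genes for turnover of CDK inhibitors, 0 passed (median log2 fold change -0.23, limma), with 1 under 0.05 before adjustment. This 1 was Skp2, which marks p27 for degradation. It had 166, 151 and 173 across controls against 108, 80.3 and 132 across knockouts (log2 fold change -0.64, SE 0.20, adjusted p = 0.152). Of 19 regulators of the Cdkn2a locus, mostly Polycomb genes, 1 rose. Before adjustment 5 were under 0.05, and the other 4, the Polycomb genes Bmi1, Ezh2, Suz12 and Cbx2, named after their values were seen, had negative log2 fold changes. The gene that passed was Ets2, a transcription factor known to act on the p16 promoter, with 76.2, 87.6 and 72.6 across controls against 159, 253 and 134 across knockouts (log2 fold change 1.15, SE 0.23, adjusted p = 0.0414). Of 17 regulators of CDK inhibitors in muscle, Foxo1 alone rose (log2 fold change 1.43, SE 0.30, adjusted p = 0.0468). Before adjustment 5 of the 17 were under 0.05, 4 higher and 1 lower. Foxo1 lost its call with median-of-ratios scaling (adjusted p = 0.05001), TMM scaling (0.0548), a pseudocount of 0.1 (0.0652) and edgeR (0.0577), and Ets2 with that pseudocount (0.0616). Without control replicate 2 the list of 17 had 4 higher and 1 lower. Ets2 and Foxo1 lost their calls without any 1 library other than control replicate 2, with adjusted p of 0.052 to 0.223. Among 3 tested neighbours of Cdkn2a and Cdkn2b, 0 passed by limma and 0 were under 0.05 before adjustment.

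In the imprinted domain of Cdkn1c on chromosome 7, 7 of 13 genes were high enough to test and 1 rose. Before adjustment 2 of the 7 were under 0.05 and higher, where 15.5% of all genes tested were under 0.05. Kcnq1ot1, the long noncoding RNA that silences Cdkn1c on the paternal chromosome, had 67.2, 46.7 and 64.3 across controls against 40.1, 37.1 and 78.8 across knockouts (log2 fold change -0.25, SE 0.30, adjusted p = 0.725). The groups overlapped. Phlda2, an imprinted growth regulator beside Cdkn1c, was at 0 in all 6 libraries. The gene that rose was Tnfrsf23, a decoy receptor for a death ligand, with 14.04, 24.8 and 10.4 across controls against 43.01, 66.2 and 48.0 across knockouts (log2 fold change 1.68, SE 0.34, adjusted p = 0.0428). Of its 50-base words 18.0% also occur in other genes, chiefly Tnfrsf22, so its value is uncertain, and it lost its call without any 1 library other than control replicate 2 (adjusted p of 0.113 to 0.212), with a pseudocount of 0.1 (0.0616) and by edgeR (0.0507).

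The genes whose log2 values ran most nearly parallel to each member over the 6 libraries were found by Pearson's r among 9409 other genes with a mean of at least 10. For Cdkn1a these were Prex1 (r = 0.996), Fech (r = 0.994) and Mapre3 (r = 0.992), and Myog had r = 0.934. Prex1 had 99.3, 167 and 95.4 across controls against 173, 201 and 143 across knockouts, so it too was high in control replicate 2 and in all knockouts. For Cdkn1b they were Mest (r = 0.984), Tmem158 (r = 0.984) and B4galt5 (r = 0.983). For Cdkn2a they were Cers6 (r = 0.976), Ikbkb (r = 0.960) and Pcsk7 (r = 0.9502), for Cdkn2c 1700021K19Rik (r = 0.994), Foxo4 (r = 0.989) and Gm1078 (r = 0.984), and for Cdkn2d Baalc (r = 0.987), Nrbp1 (r = 0.983) and Chpt1 (r = 0.982). Cdkn1a and Cdkn2a had r = 0.0751 with each other. With 6 points that share the knockout difference and control replicate 2, many genes reach high values, and these are descriptions.

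Markers of other cell types were summed in each library. For 8 genes of fibro-adipogenic progenitors, stromal cells of muscle, the sum was 379 to 694 in controls and 704 to 1135 in knockouts, with Lum at 0 in all libraries. Gsn and Col1a1 were the markers that rose, and all 6 tested had positive log2 fold changes. Most of the sum came from Col3a1, which did not pass (adjusted p = 0.488), and Gsn, which also had a called slope on Myog (0.23, adjusted p = 0.00296). Pdgfra had 9.03, 0.95 and 4.84 across controls against 8.60, 6.02 and 1.23 across knockouts. For 8 macrophage genes the sum was 21.9 to 36.1 in controls and 71.4 to 188 in knockouts. Nearly all of this came from Laptm5, the 1 macrophage marker that rose, with 35.1, 19.999 and 20.7 across controls against 71.7, 180 and 67.7 across knockouts. Ptprc, Adgre1 (listed as Emr1) and Cd74 were at 0 in all libraries. The calls of Gsn, Col1a1 and Laptm5 were each lost in some fit that left out 1 library (adjusted p of up to 0.206, 0.232 and 0.131). The groups overlapped in the other lists. Pericyte markers, 5 genes, summed to 20.1 to 119 in controls and 87.4 to 183 in knockouts, and Schwann cell markers, 5 genes, to 10.03 to 25.7 and 24.1 to 29.5. Endothelial markers, 6 genes, had knockouts (8.03 to 11.5) inside the range of controls (2.86 to 14.04). The part of these cells in the values of the CDK inhibitors was not tested.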

How the data were processed

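The members, gene lists and tests were chosen with earlier results of these data known. Reads had been aligned to mm10 and counted per gene, with TopHat and featureCounts, per the submitters' processing notes. Versions, strand setting and scaling method were not known here. The authors deposited 1 table of signal (scaled counts, 1 factor per library). Dividing each library by its smallest value above 0 gave whole numbers for 100% of values (tolerance 0.001), taken as reads. The authors also deposited a p-value and q-value per gene from their own test, and an exon length.

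Values were transformed as log2(value + 1), and fold changes on this scale understate those of low genes. The filter required 3 or more libraries with a value of 1 or more (all 7 members passed), and groups were compared across all genes with limma 3.58.1 in R 4.3.3 (intensity trend, Benjamini-Hochberg at 0.05), with 3 controls and 3 knockouts. All adjusted p-values are from limma unless edgeR 4.0.16 or DESeq2 1.42.0 is named. A further fit added centred log2 Myog. The design had named a count test for raw counts and this fit for scaled values. The scripts were tested on simulated counts. Named genes are the members, 20 genes of prior interest, up to 4 called genes in each of 8 pathway and 7 marker lists, and the 3 nearest patterns of each member with a mean of at least 10. Other alternatives were 3 scalings, 2 filters, a pseudocount of 0.1, a replicate block, and each library left out in turn. Same-numbered libraries did not deviate together throughout (r of -0.0576, 0.225 and 0.313), so the numbers were not taken as pairs. The members share at most 2.14% of their 50-base words with other genes (Cdkn1a). In GENCODE M21 a transcript still to be experimentally tested lies opposite Cdkn1a and Gm44732 lies opposite Cdkn1c, and reads of either gene may include its partner, since the strand setting of the counting is not stated.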

Additional observations from a re-analysis of the deposited data

How the results depend on the processing

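The 7 fold changes stayed on the same side of the threshold under the other scalings, filters, pseudocount, edgeR and DESeq2. The call of Cdkn1a appeared with the replicate block (1.25, adjusted p = 0.0234), with the Myog covariate (0.65) and without control replicate 2. Leaving out 1 library gave 0.89 to 1.86 for Cdkn1a, and 0.54 to 0.80 with the covariate (a range added after the data were examined). It gave -0.61 to 0.13 for Cdkn2a and -0.26 to 0.16 for Cdkn2c, which thus changed sign. Cdkn1b, Cdkn1c, Cdkn2b and Cdkn2d kept their sign in every setting that tested them, with -0.48 to -0.07, 0.61 to 1.06, 0.55 to 1.32 and 0.29 to 1.01 when 1 library was left out; Cdkn1c and Cdkn2b were too low for edgeR and for the filter on a mean of at least 5. Slopes on Myog ranged over 0.22 to 0.27 for Cdkn1a, 0.055 to 0.1003 for Cdkn1b, 0.065 to 0.203 for Cdkn1c, -0.022 to 0.18 for Cdkn2a, 0.025 to 0.379 for Cdkn2b, 0.081 to 0.123 for Cdkn2c and 0.15 to 0.19 for Cdkn2d. Control replicate 1 correlated best with knockout replicate 3, so the block rests on shared numbers only.

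Genes higher in the knockouts numbered 210, or 121 with a pseudocount of 0.1, 359 with the block, 391 with the covariate and 12 to 659 with 1 library left out. Genes lower numbered 12, or 6, 76, 80 and 1 to 114 in the same settings, and 20 by DESeq2. Calls that rose made up 94.6% with all libraries, 82.5% with the block, 83.0% with the covariate and 85.3% without control replicate 2. The large but uncalled Myog difference (2.43, from log2 values) turned to -0.26 by edgeR and -0.31 by DESeq2. The mean of the untransformed Myog values was 617 in controls, where control replicate 2 had 1821, and 515 in knockouts. Other uncalled genes also changed sign. Mki67 (-0.015) was 0.019 at equal totals, 0.082 with the covariate, 0.012 by edgeR and -0.12 to 0.16 with 1 library left out. Ccnd1 was -0.048 by edgeR, -0.089 by DESeq2 and -0.43 to 0.33 with 1 library left out. With the covariate Trp53 was 0.052, Ccnd3 -0.24 and Rb1 -0.16 (0.37 without it). With 1 library left out Trp53 was -0.20 to 0.036, Ccnd2 -0.31 to 0.086, Ccnd3 -0.072 to 0.56 and Ckm -1.17 to 1.34 (0.015 with the pseudocount of 0.1). The causes were not tested. Depth limits Cdkn1c and Cdkn2b most, with 2 to 9 reads a library.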
